A study of Mus musculus with 49 samples.

Results

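Meis1, Meis2, Meis3, Pbx2, Pbx3, Pknox1 and Tgif1 are homeobox genes of the TALE class, and their transcripts were followed through single cells of the early mouse kidney. The genes were taken by symbol from the table of expressed genes, where all 7 were present, each on 1 row, among 13093 genes. RNA had been sequenced from 49 single cells of metanephric mesenchyme, the tissue that gives rise to nephrons and kidney stroma, at 11.5 days post coitum (Theiler stage 19). All cells came from mice with the transgene Tg(Crym-EGFP)82Gsat on a mixed background, of both sexes, and no cell was treated. The reporter only guided the dissection, which also took a few cells from outside the fluorescent domain. Since no label ties a cell to an embryo, the 49 cells count as 1 sample, cells are not replicates, and no p-value was computed. Levels are in RPKM, the reads of a gene scaled to its length and to all mapped reads of the cell, and a gene was called found in a cell at 1 RPKM or more.

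Cells were divided by Six2, a transcription factor that keeps nephron progenitors undifferentiated, and Foxd1, a transcription factor of stromal progenitors. At 1 RPKM, 18 cells had Six2 only, 15 had Foxd1 only, 9 had both and 7 had neither. These classes come from the cells' own transcripts and are not groups of the study's design.

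TALE proteins carry extra residues in a loop between helices of the homeodomain, the part that binds DNA. MEIS and PKNOX proteins bind PBX proteins, PBX proteins also bind many HOX proteins, and the joint complexes bind longer DNA sites than a HOX protein alone. TGIF proteins are repressors that act with SMAD proteins of the TGF-beta pathway. In embryos Meis genes are known as partners of Hox genes along the body axis and as genes induced by retinoic acid in the proximal limb, and Meis1 is widely used as a marker of kidney stroma.

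The stretch of coding sequence for the homeodomain is shown for the 3 genes that differed most between the classes and for Pbx2, because it separates the subfamilies and shows how far their reads can be told apart. Each sequence is 189 bases of spliced coding sequence, 5′ to 3′, read from the GENCODE M21 transcripts (GRCm38) by gene name. Capitals mark the bases that differ from Meis1 at the same place in the stretch.
Meis1: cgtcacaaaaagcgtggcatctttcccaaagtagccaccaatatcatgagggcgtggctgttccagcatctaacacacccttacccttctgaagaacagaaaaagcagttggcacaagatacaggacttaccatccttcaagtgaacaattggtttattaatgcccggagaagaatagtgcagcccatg
Meis2: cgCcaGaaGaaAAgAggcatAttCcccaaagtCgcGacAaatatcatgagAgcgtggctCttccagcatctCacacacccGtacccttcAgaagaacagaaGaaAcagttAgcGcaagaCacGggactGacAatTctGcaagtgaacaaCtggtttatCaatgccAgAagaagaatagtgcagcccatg
Pknox1: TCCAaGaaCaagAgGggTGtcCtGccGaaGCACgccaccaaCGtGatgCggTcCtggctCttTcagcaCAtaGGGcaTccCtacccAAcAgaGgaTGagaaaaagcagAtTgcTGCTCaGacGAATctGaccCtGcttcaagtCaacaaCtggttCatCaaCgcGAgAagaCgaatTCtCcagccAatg
Pbx2: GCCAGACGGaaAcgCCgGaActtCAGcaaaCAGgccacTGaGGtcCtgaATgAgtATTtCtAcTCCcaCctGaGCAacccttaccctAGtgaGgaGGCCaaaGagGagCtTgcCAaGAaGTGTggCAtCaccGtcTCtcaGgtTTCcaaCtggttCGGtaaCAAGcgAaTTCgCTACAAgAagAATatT

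Meis2 shared 159 of the 189 bases with Meis1 (84.1%) and Meis3 shared 160 (84.7%). Pknox1 shared 123 (65.1%), Tgif1 101 (53.4%), Pbx2 96 (50.8%) and Pbx3 92 (48.7%). Pbx2 and Pbx3, which belong to 1 subfamily, shared 156 bases with each other (82.5%). Over the whole coding sequences, the longest run without a difference between any 2 members was 28 bases, between Meis2 and Meis3, and it was 23 bases between Meis1 and Meis2. Reads longer than such a run are not identical between the coding sequences of these genes. The transcript ends outside the coding sequence were not compared.

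The relative number of reads, estimated from the steps between low values, lay between 0.693 and 1.52 times the median cell in 47 cells, and was 0.0346 in cell 3 and 0.0462 in cell 7. In the median cell 1 RPKM was worth 3.28 steps of Meis3, 5.16 of Pbx2, 4.92 of Tgif1 and 8.48 of Pknox1, and a step was taken as 1 read. Of the low values, up to 20 steps, 86.7 to 92.9% were whole multiples of the step for these 4 genes (within 0.02 of a step), and no step was found for Meis1, Meis2 and Pbx3. In cell 3, 1 step of Tgif1 was worth 5.87 RPKM, so a 0 there says little, and the 7.44 RPKM of Six2 that put this cell in the class with both genes is 1 step. Cell 25, of the Foxd1-only class, also had 11 of 12 ureteric bud genes, and cell 27, with neither gene, had all 8 endothelial genes in the table. Of the other marker lists, 3 or more genes were found in 5 cells for ureteric bud, in 1 for endothelium, in 1 for neural genes and in none for macrophage (3 genes in the table), erythroid (1 gene) or muscle (2 genes) lists. The median number of genes found was 4960.5 in Six2-only, 5232 in Foxd1-only, 5670 in cells with both and 4246 in cells with neither.

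Meis1 and Meis2 were present in nearly every cell at high levels, whereas the other 5 members were each found in 28.6 to 67.3% of cells. Meis1 (gene ID 17268; chromosome 11, 18780431 to 18918972 in mm9) was found in all 49 cells (100%, exact 95% binomial interval 92.7 to 100%). Its level ran from 3.55 RPKM in cell 34 to 536 RPKM in cell 17, with a median of 108 RPKM and quartiles of 66.5 and 247 RPKM. This median ranked 587th among the 13093 genes. The gene Gm16141 lies within the span of Meis1, and without strand their reads cannot be told apart where both are transcribed. Meis2 (gene ID 17536; chromosome 2, 115687000 to 115890794) reached the threshold in 48 cells (98.0%, interval 89.1 to 99.9%) and had a median of 55.2 RPKM, quartiles of 35.9 and 84.9 RPKM and a highest value of 170 RPKM, again in cell 17. The exception was cell 27, the cell with endothelial genes, at 0.273 RPKM of Meis2 beside 96.3 RPKM of Meis1. Meis1 was the higher gene in 41 of 49 cells, at a median of 2.91 times the level of Meis2.

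Meis3 (gene ID 17537, chromosome 7, 16760729 to 16771852) was found less often by comparison. Detection came in 27 cells (55.1%, interval 40.2 to 69.3%), 9 had a value between 0 and 1 RPKM, and 13 were listed at 0. Where found, its median was 39.9 RPKM, in the range of Meis2, and it reached 345 RPKM in cell 17. The SD of log2(RPKM+1) over cells was 2.74 for Meis3, against 1.49 for Meis1 and 1.30 for Meis2. Among the other members it was 2.58 for Tgif1, 2.16 for Pknox1, 1.61 for Pbx3 and 1.59 for Pbx2.

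The Pbx genes, whose proteins are the partners of MEIS and HOX proteins, were low. Pbx2 (gene ID 18515; chromosome 17, 34729416 to 34734286) reached 1 RPKM in 22 cells (44.9%, interval 30.7 to 59.8%), whose median was 6.28 RPKM. A further 16 cells had a value between 0 and 1 RPKM, and 11 were listed at 0. The highest value, 54.6 RPKM in the shallow cell 7, rests on 13 steps, and the next was 40.3 RPKM in cell 36. Pbx3 (gene ID 18516; chromosome 2, 34027429 to 34227556) was the least often found member, in 14 cells (28.6%, interval 16.6 to 43.3%), whose median was 5.14 RPKM. It was listed at 0 in 20 cells, and 1 cell stood far above the rest, cell 50 at 111 RPKM, followed by cell 40 at 36.1 RPKM. At least 1 of Pbx2 and Pbx3 was found in 26 cells, and a value above 0 for either was listed in 44.

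Pknox1 (gene ID 18771; chromosome 17, 31701718 to 31744638), whose protein like MEIS binds PBX, reached 1 RPKM in 26 cells (53.1%, interval 38.3 to 67.5%), whose median was 9.33 RPKM. Its highest values were 156 RPKM in cell 26 and 96.1 RPKM in cell 51. Tgif1 (gene ID 21815; chromosome 17, 71193545 to 71202872), the repressor gene, did so in 33 cells (67.3%, interval 52.5 to 80.1%), whose median was 29.6 RPKM. It was highest in cell 20 at 173 RPKM, cell 13 at 172 RPKM and cell 17 at 150 RPKM. In the order of median levels over all cells, Meis1 at 108 and Meis2 at 55.2 RPKM were followed by Tgif1 at 14.6, Meis3 at 3.46, Pknox1 at 2.62, Pbx2 at 0.734 and Pbx3 at 0.114 RPKM. The ranges of neighbours in this order overlapped throughout.

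**Figure D1:**
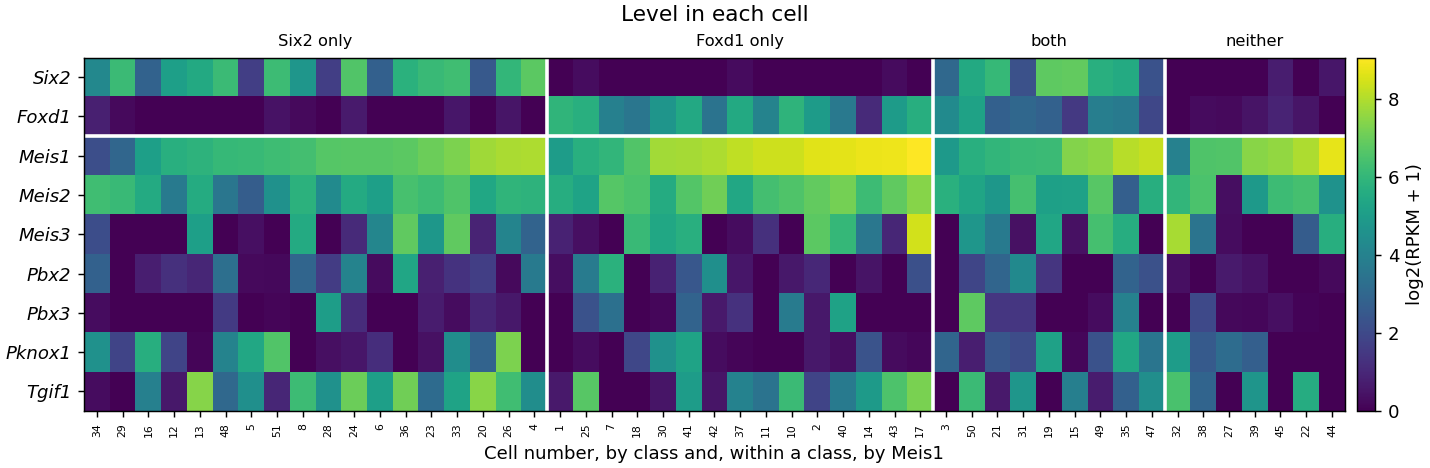
Level of Six2, Foxd1 and the 7 members in each of 49 cells, as log2(RPKM + 1) on a colour scale. Columns are cells, grouped by class and ordered by Meis1 within a class. The Meis1 and Meis2 rows are bright in nearly all columns, while the other 5 members are bright in some cells and dark in others of the same class.

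Meis1 and Meis2 were higher in cells with Foxd1 only than in cells with Six2 only, without being absent from either. Meis1 lay between 31.2 and 536 RPKM with a median of 292 RPKM in the 15 Foxd1-only cells, and between 3.55 and 247 RPKM with a median of 92.0 RPKM in the 18 Six2-only cells. The classes overlapped, but 9 of the 15 Foxd1-only cells were above the highest Six2-only cell, and 11 of 15 against 3 of 18 cells reached 200 RPKM. Meis2 lay between 37.3 and 170 RPKM with a median of 94.0 RPKM in Foxd1-only cells, and between 5.41 and 93.1 RPKM with a median of 46.1 RPKM in Six2-only cells. Here 8 of the 15 Foxd1-only cells were above the highest Six2-only cell. The ratio of Meis1 to Meis2 had a median of 3.14 in Foxd1-only and 2.66 in Six2-only cells, so that the levels of both genes shifted together while their ratio spread widely within each class, from 0.615 to 6.88 and from 0.0463 to 12.6.

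Cells with both Six2 and Foxd1 had medians on the side of the Six2-only class for these 2 genes. Their medians were 71.8 RPKM for Meis1 (118 RPKM without the shallow cells 3 and 7), in a range of 28.7 to 308 RPKM, and 39.4 RPKM for Meis2, in a range of 5.68 to 104 RPKM. Cells with neither had medians of 174 and 62.0 RPKM, between those of the Six2-only and Foxd1-only classes, with Meis1 from 15.0 to 426 RPKM and Meis2 from 0.273 to 89.3 RPKM. Divided by Six2 alone, Meis1 had a median of 82.0 RPKM in the 27 cells with Six2 and 236 RPKM in the 22 without it, and Meis2 had medians of 45.8 and 82.4 RPKM. Divided by Foxd1 alone, the medians were 225 RPKM in the 24 cells with Foxd1 and 102 RPKM in the 25 without it for Meis1, and 77.5 and 46.5 RPKM for Meis2.

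Pknox1 went the other way. It was found in 11 of 18 Six2-only cells (61.1%, interval 35.7 to 82.7%) and in 4 of 15 Foxd1-only cells (26.7%, interval 7.79 to 55.1%), and the intervals, which cover counting error only, overlapped. The 18 Six2-only cells ran from 0 to 156 RPKM with a median of 2.63 RPKM, and the 15 Foxd1-only cells from 0 to 37.2 RPKM with a median of 0.218 RPKM. Only 4 Six2-only cells lay above the highest Foxd1-only cell. Cells with both regulators had Pknox1 in 7 of 9, with a median of 4.32 RPKM, and cells with neither in 4 of 7, with a median of 4.93 RPKM, which was 2.46 RPKM without cell 27. With and without Six2 it was found in 66.7% of 27 and 36.4% of 22 cells.

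The remaining members showed smaller or less even differences. Tgif1 was found in 14 of 18 Six2-only and 10 of 15 Foxd1-only cells, with medians of 22.3 and 12.5 RPKM. Meis3 was found in nearly equal shares of all 4 classes, 55.6% of Six2-only, 53.3% of Foxd1-only, 55.6% of cells with both and 57.1% of cells with neither. Pbx2 was found in 10 of 18 Six2-only cells, 6 of 15 Foxd1-only cells and 6 of 9 cells with both. In cells with neither it was found in 0 of 7, which by the limit of 3 counts used for a count of 0 allows up to 42.9% (the exact interval ends at 41.0%), and the largest value there was 0.573 RPKM. Pbx3 was found in 3 of 18 Six2-only cells (16.7%, interval 3.58 to 41.4%), 6 of 15 Foxd1-only cells (40.0%, interval 16.3 to 67.7%), 4 of 9 with both and 1 of 7 with neither.

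**Figure D2:**
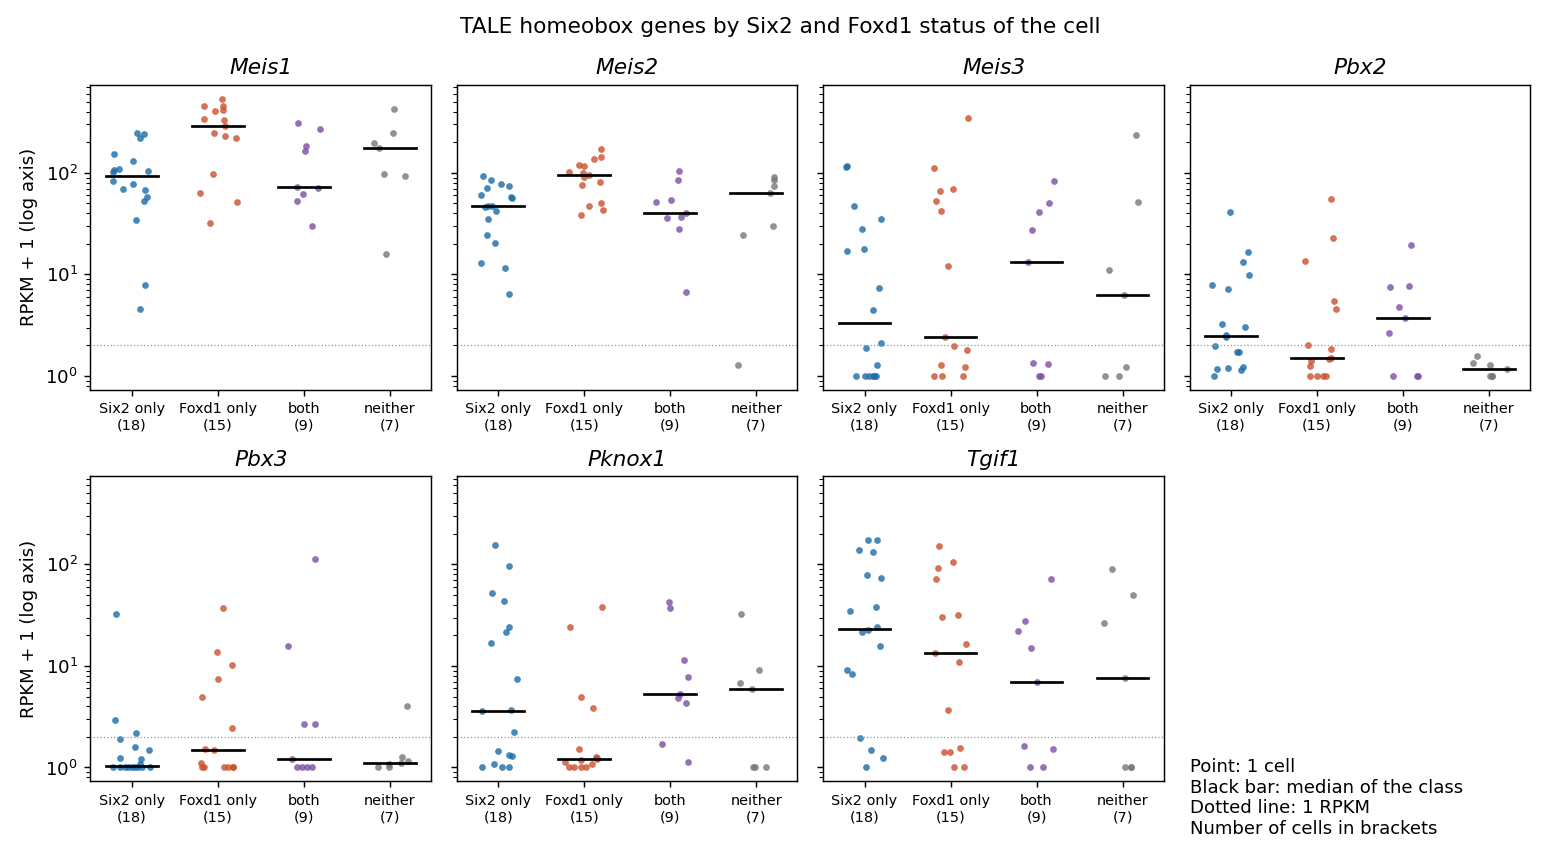
RPKM + 1 on a log axis for each member (panels), with 1 point per cell and the median of the class as a bar, for 18 Six2-only, 15 Foxd1-only, 9 both and 7 neither cells. Meis1 and Meis2 points sit higher in the Foxd1-only class, Pknox1 points sit lower there, and the classes overlap in every panel.

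To set these differences against the rest of the transcriptome, the mean of log2(RPKM+1) in Six2-only cells was subtracted from that in Foxd1-only cells for each gene found in 5 or more cells. A difference of 1, a fold of 2 on this scale, was used as the limit, and it understates changes of low genes. Of 10246 genes, 9.88% were higher and 11.1% were lower in Foxd1-only cells by this limit, and the median gene differed by -0.04. All 7 members could be compared: 2 passed as higher, Meis1 and Meis2, and 1 passed as lower, Pknox1. The median difference of the 7 members was 0.57.

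The mean log2 level of Meis1 was 7.73 ± 1.28 (SD over 15 cells) in Foxd1-only and 6.20 ± 1.53 (SD over 18 cells) in Six2-only cells, a difference of 1.53 that exceeded that of 96.4% of genes. For Meis2 the levels were 6.42 ± 0.67 and 5.29 ± 1.10, a difference of 1.13, above 92.3% of genes. Pknox1 stood at 1.08 ± 1.71 and 2.63 ± 2.53, a difference of -1.56, with 3.76% of genes below it. For Meis1 and Meis2 the difference was no smaller than either SD between cells, and for Pknox1 it was smaller than both. The differences of the others were 0.75 for Pbx3, 0.57 for Meis3, -0.26 for Pbx2 and -0.88 for Tgif1. Pbx3 passed the limit with classes at 5 RPKM (1.15) and with a pseudocount of 0.1 (1.28).

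The calls depend on where the classes are drawn. With Six2 and Foxd1 called at 0.1 RPKM, which enlarges the class with both from 9 to 20 cells, the difference fell to 0.90 for Meis1 and to -0.34 for Pknox1, while Meis2 stayed past the limit. With classes at 5 or 10 RPKM it was Meis2 that fell short, at 0.93. Among 10 housekeeping genes the median difference was -0.35, and Tbp, the least often found of them, differed by -1.20, lower in Foxd1-only cells like Pknox1. The part of such a shift in the result for Pknox1 was not tested.

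**Figure D3:**
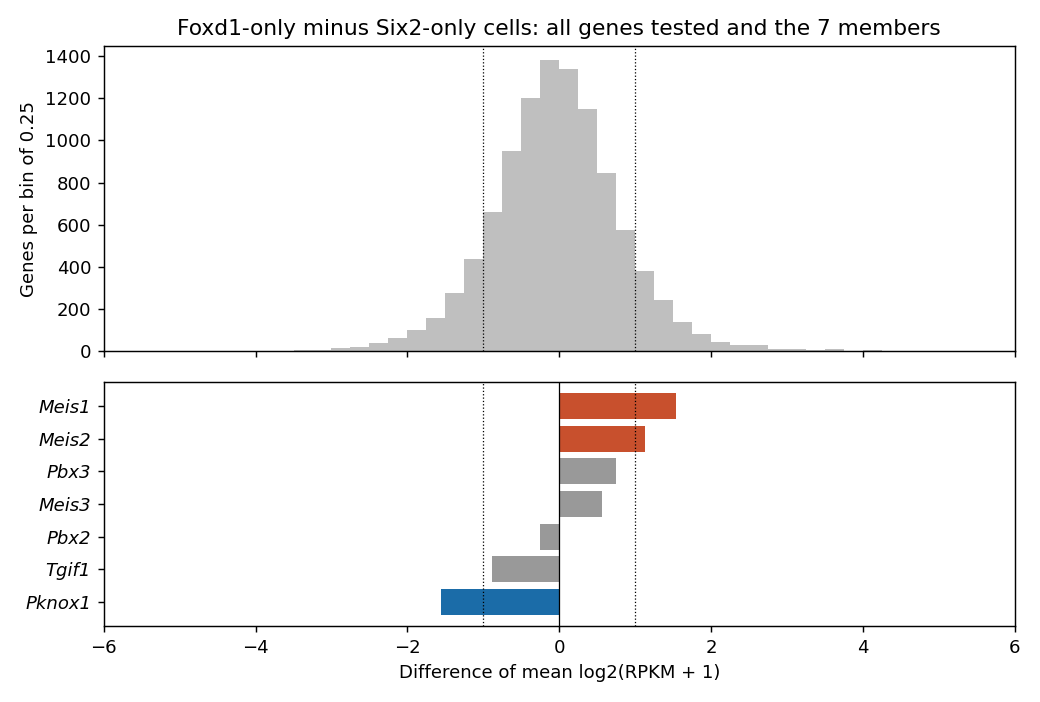
Upper panel: number of genes per bin of 0.25 in the difference of mean log2(RPKM + 1), Foxd1-only minus Six2-only cells, for 10246 genes. Lower panel: the same difference for each member as a bar from 0, with dotted lines at a difference of 1 in either direction, which Meis1 (1.53), Meis2 (1.13) and Pknox1 (-1.56) pass.

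Over the 49 cells, Meis1 and Meis2 followed each other only loosely. The Spearman correlation was 0.361 between Meis1 and Meis2, 0.341 between Meis2 and Meis3, -0.263 between Meis1 and Pknox1 and -0.309 between Meis2 and Pknox1. All values are descriptions over 49 cells that share 1 table of normalised values and differ in depth. The lowest Meis1 cells were not low in Meis2: cell 34 had 3.55 RPKM of Meis1 and 76.6 RPKM of Meis2, and cell 29 had 6.91 and 69.4 RPKM. Conversely, cell 35 had 270.5 RPKM of Meis1 beside 5.68 RPKM of Meis2, and cell 44 had 426 RPKM beside 23.4 RPKM. Against the genes that define the classes, the correlations were 0.262 with Foxd1, -0.313 with Six2 and -0.442 with Crym for Meis1, and 0.423, -0.384 and -0.354 for Meis2. For Pknox1 they were -0.163, 0.196 and 0.360. Crym encodes a thyroid hormone binding protein and is the gene behind the reporter.

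**Figure D4:**
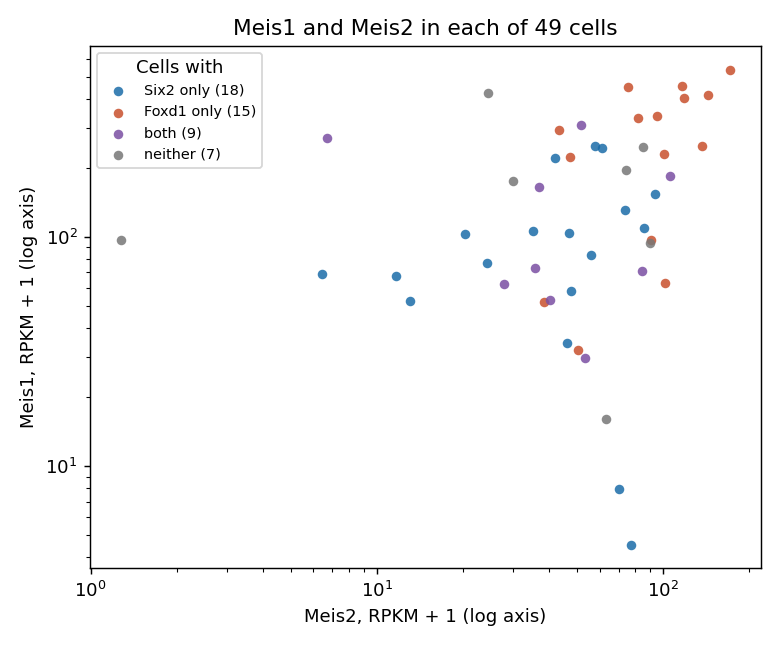
Meis1 against Meis2 in each of 49 cells, both as RPKM + 1 on log axes, with colours for the 4 classes. Foxd1-only cells gather at the upper right, and a few cells of other classes lie low in 1 gene and high in the other, such as cell 27 at 0.273 RPKM of Meis2 and cell 34 at 3.55 RPKM of Meis1.

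The sparse members occurred together in varying numbers of cells. The number of cells with both genes was compared with the product of both counts divided by 49. Pbx2 and Pbx3 were found together in 10 cells, where the product is 6.29, and Pbx3 and Tgif1 in 12 cells, where it is 9.43. Pknox1 and Tgif1 shared 15 cells, against 17.5, and Meis3 and Pknox1 shared 14, against 14.3. Of the 10 pairs without Meis1 and Meis2, 5 were shared by more cells than the product. Pknox1 was found with Six2 in 18 cells (14.3 by the product), Pbx2 with Six2 in 16 (12.1) and Pbx3 with Foxd1 in 10 (6.86). A cell had from 2 to 7 of the members, with a median of 5, and 2 cells had all 7. The number of genes found in a cell had a Spearman correlation of 0.317 with Pbx3 and of -0.09 to 0.189 with the other members. This number did not follow depth in the shallow cells 3 and 7, which had 4954 and 5232 genes beside a median of 5210. With relative depth itself the correlation was -0.131 for Pbx3, and over all members it ran from -0.221 for Meis2 to 0.093 for Meis1.

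Among further TALE genes of the table, Tgif2, the close relative of Tgif1, was found in 34 cells. Its median was 11.7 RPKM, and cell 15 was highest at 216 RPKM. It was found in 10 of 15 Foxd1-only and 10 of 18 Six2-only cells, with medians of 24.0 and 1.29 RPKM and a difference of 1.26, against -0.88 for Tgif1. Pbx4 was found in 8 cells, Pknox2 in 7 and the Iroquois gene Irx4 in 1.

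The Hox genes, whose proteins are the partners of PBX and MEIS, were spread over both classes. Of 39 Hox genes listed, 32 were in the table and 31 could be compared; 3 were higher in Foxd1-only cells (9.68%) and 5 were lower (16.1%), beside 9.88 and 11.1% over all genes. The higher ones were Hoxd8 (1.57), Hoxb7 (1.28) and Hoxc4 (1.07), and the lower ones were Hoxb1 (-2.57), Hoxb9 (-2.04), Hoxa11 (-1.78), Hoxb3 (-1.09) and Hoxd11 (-1.06). The Hox genes found in most cells, Hoxa10 in 49 and Hoxc10 in 47, differed by -0.48 and 0.26. The median over the Hox list was -0.08.

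Genes for proteins that bind PBX or TGIF were all in the table, 12 of 12. None was higher by the limit, and Smad4 (-1.73) and Smad2 (-1.21), which encode signal carriers of the TGF-beta pathway, were lower in Foxd1-only cells, as 16.7% of this list beside 11.1% of all genes. Smad4 was found in 14 of 18 Six2-only and 6 of 15 Foxd1-only cells, and Smad2 in 12 of 18 and 7 of 15. The histone deacetylase genes Hdac1, found in 48 cells, and Hdac2, found in 46, differed by -0.28 and 0.25, and the SMAD corepressor gene Skil, found in 47 cells, by 0.98.

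Genes of retinoic acid synthesis, transport and reception were higher in the Foxd1-only class together with Meis1 and Meis2. Of 18 listed genes, 15 were in the table and 12 could be compared; 6 were higher (50.0%, beside 9.88% of all genes) and none was lower (beside 11.1%). The list median was 0.99. Aldh1a2, the synthesis enzyme, is also on the stroma list, as is the receptor gene Rarb, so that these are no independent sign of the class. Crabp1, whose protein binds retinoic acid in the cytoplasm, had a median of 367 RPKM in Foxd1-only and 0 in Six2-only cells, and differed by 6.66. Aldh1a2 differed by 3.51, with medians of 58.3 and 0.336 RPKM, and Dhrs3, a retinaldehyde reductase gene, by 2.43. Rarb differed by 1.39, Crabp2 by 1.23 and the retinol uptake gene Stra6 by 1.13. Of the 15 genes of the stroma list that could be compared, Foxd1 among them, 13 were higher in Foxd1-only cells (86.7%, beside 9.88% of all genes). Of 15 nephron progenitor genes, Six2 among them, 12 were lower (beside 11.1% of all genes).

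For each member the genes with the most similar pattern were named by the highest Spearman correlation over 49 cells, among 8420 other genes found in 10 or more cells. For Meis1 they were Mapre2 (0.575), Pcdh18 (0.562) and Ftl2 (0.554), and for Meis2 Lgals1 (0.530), Peg3 (0.529) and the collagen gene Col3a1 (0.510). For Meis3 they were Hbp1 (0.602), Hint3 (0.566) and Polr3b (0.537), for Pbx2 Mphosph8 (0.552), Dmxl1 (0.522) and Tut1 (0.494), and for Pbx3 Exosc7 (0.588), Pxk (0.564) and Mmp14 (0.557). Pknox1 was nearest to Fbxw5 (0.577) and Sclt1 (0.571), and Tgif1 to 6720456B07Rik (0.560), Paics (0.515) and Cir1 (0.485). The third gene for Pknox1 (0.557) has a symbol that the table gives as a calendar date. No 2 members shared a gene among these. These are the highest values of 8420 for each member, and 99% of genes lay below 0.343 to 0.388, depending on the member.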

How the data were processed

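The deposited table gives RPKM for each gene in each cell, as its header line says. The submitters' processing notes name mm9 as build and TopHat 1.4.1 and DESeq as tools, with no role given. Libraries were made with SMARTer and Nextera XT chemistry and sequenced on a HiSeq2500 after the capture chambers were inspected under a microscope, per the labels' protocols. This chemistry keeps no strand and adds no molecular identifiers. The table lists genes above 3 RPKM in at least 1 cell, and the deposited count of such cells matched the values in all 13093 genes. For the read counter, the annotation and the read length: not given in the sources used here.

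Columns were matched to cells by number, and 0 columns of values were left unused. No cell was filtered and no doublet caller was run. Shares carry an exact (Clopper-Pearson) 95% binomial interval, for counting error only. Differences used log2(RPKM+1), a pseudocount of 1, and genes found in 5 or more cells. Relative depth came from the densest ratio of values below 8 RPKM between each cell and cell 1. Depth, steps and differences were tested on simulated data, and the correlation was compared with that of SciPy on deposited values. The stretches of coding sequence were taken from the longest reading frame of each gene. Members and lists were chosen with earlier results of these data known. Named genes are the members, the class genes, list genes found most often or past the limit, and the 3 nearest genes of each member; Gm16141, Tbp and single cells were chosen after their values were seen, and some list genes that were analysed are not reported here. Python 3.11.15, pandas 2.3.3 and SciPy 1.17.1 were used.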

Additional observations from a re-analysis of the deposited data

How the results depend on the processing

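With 1 sample there is no spread between embryos, and depth limits the sparse members. The alternatives were other detection thresholds, class thresholds, pseudocounts and gene filters, and leaving out cells 3 and 7 or cells 25 and 27. Meis1, Meis2 and Pknox1 kept their direction in all 7 alternatives run for each, over 0.90 to 1.68, 0.92 to 1.22 and -2.34 to -0.34. With classes at 0.1 RPKM, Meis1 differed by 0.90 and Pknox1 by -0.34, so 1 member was higher, and Tgif1 (-1.33) was the member that was lower. Of all genes, 9.46% were higher and 13.0% were lower with these classes. With classes at 5 or 10 RPKM Meis2 differed by 0.93, at 5 RPKM Pbx3 passed as higher (1.15), and at 10 RPKM 1 member was higher. The share of all genes that were higher was 10.2% at 5 RPKM and 8.53% at 10 RPKM. With a pseudocount of 10, Meis2 differed by 0.92 and Pknox1 by -0.71, leaving 1 member higher and 0 lower, against 1.70 and 2.00% of all genes. With a pseudocount of 0.1, 3 members were higher, Pbx3 (1.28) among them, and 2 were lower, against 19.7 and 20.4% of all genes. Without cells 25 and 27 Tgif1 (-1.12) joined Pknox1, again 2 lower, against 12.4% of all genes. Why these calls moved was not tested. Without cells 3 and 7 each of the 7 members stayed on its side of the limit. At 10 RPKM Pbx3 was found in 10.2% of cells, and at 0.1 RPKM in 53.1%.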

Other observations

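Cell 17, a Foxd1-only cell, held the highest value of all 3 Meis genes, at 536 RPKM of Meis1, 170 RPKM of Meis2 and 345 RPKM of Meis3, and the third highest value of Tgif1, at 150 RPKM. Its Pbx3 was listed at 0 and its Pknox1 stood at 0.121 RPKM. The cell had 13 of 16 stroma genes, 1 of 12 ureteric bud genes and none of 8 endothelial genes.

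Gm16141 (chromosome 11, 18913892 to 18915157 in mm9) lies within the span of Meis1. Its Spearman correlation over 49 cells was 0.503 with Meis2, the 4th highest of 8420 genes, and 0.277 with Meis1, at rank 389. Gm16141 was found in 29 cells and was higher by 3.57 in Foxd1-only than in Six2-only cells on the log2(RPKM+1) scale, more than Meis1 at 1.53.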
